A study of Mus musculus with 6 samples.

Results

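Histones are the proteins that DNA is wound around, and the histone genes described here are those of the linker histones H1 and the core histones H2A, H2B, H3 and H4 on an Agilent mouse array of 60-base oligonucleotides. Members were the spots whose annotated symbol starts with H1f, H2ac, H2bc, H2aj, H2ax, H2az, H3c, H3f, H4c or Macroh2a. There were 35 such spots of 22393. They stood for 34 of the 16504 named genes, with 1 spot each, and for 1 spot annotated to both H2ac19 and H2ac18, which cannot be given to either gene. Of the 35, 24 were replication-dependent clustered genes (23 single genes and the shared spot) and 11 were replacement variants.

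The clustered genes lie in tight groups on a few chromosomes, lack introns, and give mRNAs that end in a stem-loop instead of a poly(A) tail. Their transcripts build up in S phase, when newly made DNA is packed into nucleosomes, and are lost afterwards. Replacement variants are mostly made throughout the cell cycle, from single genes elsewhere and as polyadenylated mRNA. They take the place of clustered histones at transcribed genes, at breaks or on silent chromatin. Members were put in these classes by gene symbol, and the link of single members to S phase was not measured. Of the 24 clustered spots, 19 were genes of chromosome 13 and 4 of chromosome 3, and the last was the spot with 2 annotated genes.

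The cells were cultured fibroblasts from mouse embryos 15.5 days old, with pooled cytoplasmic RNA from 3 embryos of 1 litter, taken at passage 2 after 10 population doublings. Duplicates were planned on pools from separate litters, but the labels do not tie an array to a pool. The double mutant was PARP-1 null and also carried the Wrn helicase in-frame deletion, the PARP-1 null lacked poly(ADP-ribose) polymerase 1, an enzyme that responds to DNA strand breaks, and the Wrn mutant carried the deletion alone. Wrn is a RecQ helicase, lost in human Werner syndrome. Each genotype had 2 arrays, on which mutant cRNA in Cy3 was hybridised with wild-type cRNA in Cy5. The wild type, which had neither change, had no array of its own and the dyes were not swapped, so a ratio against wild type holds any dye bias of its probe, while a difference between mutants does not. Per the labels, all groups had a 129/Sv-Black Swiss background. On the second double-mutant array, 1 strain label reads wild type, against a title and source that name the double mutant.

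All values below are log2 ratios, read as mutant over wild type. The direction is likely and not certain, since it rests on Parp1, which stood at -2.97 and -2.59 on the double-mutant arrays and -2.61 and -2.30 on the PARP-1 null arrays, against -0.12 and -0.31 on the Wrn-mutant arrays. Wrn itself stood at 0.25 and 0.71 in double-mutant cells and 0.84 and 0.58 in Wrn-mutant cells. The labels do not place its probe relative to the deletion, so this does not check the Wrn genotype. Deposited ratios stop at 6.64 on this scale, and some are exactly 0. Among the 210 histone values, 1 was at that limit and 15 were exactly 0, and H2az1 and H3c1 were 0 on all 6 arrays. The deposited values give neither signal over background nor a level per transcript, so the presence of fibroblast markers could not be checked and genes cannot be ranked by abundance. Precision is limited by having 2 arrays per genotype. The 3 comparisons share the wild type, so like values in several genotypes are not independent.

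Promoter sequences are shown for 2 H2B genes, H2bc18 and H2bc12, whose ratios were far apart, and for 2 linker histone genes, H1f3 and H1f1, whose ratios had opposite signs. Each is a window of 300 bases around the gene's start, most of it upstream, from RefSeq on GRCm38.p6, on the + strand: H2bc18 at chr3:96269450-96269749, H2bc12 at chr13:22035571-22035870, H1f3 at chr13:23554782-23555081 and H1f1 at chr13:23763418-23763717. Capitals mark exact matches, on either strand, to 4 motifs known from histone promoters, which are the octamer ATTTGCAT, the CCAAT box, the TATA box TATAAA and the H1 box AAACACA.
H2bc18: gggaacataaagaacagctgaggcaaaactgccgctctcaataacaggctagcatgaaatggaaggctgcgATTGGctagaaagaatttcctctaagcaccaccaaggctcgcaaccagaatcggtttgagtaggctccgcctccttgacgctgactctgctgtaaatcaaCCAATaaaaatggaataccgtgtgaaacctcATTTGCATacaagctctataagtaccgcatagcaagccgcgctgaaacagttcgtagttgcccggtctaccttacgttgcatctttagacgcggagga
H2bc12: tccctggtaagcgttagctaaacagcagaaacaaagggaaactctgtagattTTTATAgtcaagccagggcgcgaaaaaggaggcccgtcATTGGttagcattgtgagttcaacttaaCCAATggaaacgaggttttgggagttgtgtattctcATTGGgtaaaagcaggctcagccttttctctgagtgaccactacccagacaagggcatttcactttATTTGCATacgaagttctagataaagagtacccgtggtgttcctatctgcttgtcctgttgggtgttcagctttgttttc
H1f3: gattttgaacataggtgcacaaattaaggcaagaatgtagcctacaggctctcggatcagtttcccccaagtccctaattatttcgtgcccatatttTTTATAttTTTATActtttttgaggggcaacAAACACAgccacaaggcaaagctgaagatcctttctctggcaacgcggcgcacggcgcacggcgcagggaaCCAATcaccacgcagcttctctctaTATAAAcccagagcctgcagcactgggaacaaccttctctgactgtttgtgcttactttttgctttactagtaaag
H1f1: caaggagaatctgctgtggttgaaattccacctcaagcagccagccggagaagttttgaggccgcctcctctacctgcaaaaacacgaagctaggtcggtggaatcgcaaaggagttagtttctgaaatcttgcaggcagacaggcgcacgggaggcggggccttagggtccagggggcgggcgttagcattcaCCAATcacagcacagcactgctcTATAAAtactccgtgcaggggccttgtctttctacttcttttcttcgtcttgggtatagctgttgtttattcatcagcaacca
No matches overlapped each other in these windows. The octamer occurred 1 time in H2bc18 and in H2bc12, and the CCAAT box 2 times in H2bc18 and 3 times in H2bc12. The letters TATAAA were found at 0 places in the H2bc18 window and 1 time in H2bc12. The H2bc12 match reads TTTATA, on the opposite strand and well upstream of its octamer. H1f3 held 1 H1 box, 1 CCAAT box and 3 matches to TATAAA, and H1f1 held 1 CCAAT box and 1 match to TATAAA with the H1 box at 0 places.

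RefSeq gave such a window for 29 of the 34 genes, with 2 windows for H2bc6, of which 1 held the octamer. A histone gene is counted when any of its windows held the motif, while shares over all mouse promoters are per window. The octamer was present in 4 of 4 H2B genes and 3 of 3 clustered H2A genes with a window, in 0 of 5 clustered H1, 0 of 5 H4 and 0 of 2 clustered H3 genes, and in 1.74% of 32851 mouse promoter windows. Among replacement genes it was found in 1 of 2 H3 genes, H3f3b. The H1 box was found in 4 of 5 clustered H1 genes, 1 of 3 clustered H2A, 1 of 4 H2B and 1 of 2 replacement H3 genes, and in 7.18% of all windows. Over all windows, the CCAAT box occurred in 37.4% and TATAAA in 13.6%. The windows of H2bc1 and H2ac1 share 220 bases, so these genes are not independent there. H2bc18 and H2bc12 both hold the octamer. They were shown because their ratios were far apart, and a link between motif and ratio was not tested. A match describes the sequence and does not show that a factor binds there.

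H2bc18, which encodes a core histone H2B and lies on chromosome 3, had log2 ratios of 3.07 and 2.65 on the double-mutant arrays, 6.62 and 5.91 on the PARP-1 null arrays, and -0.00 and -0.14 on the Wrn-mutant arrays. It was high on all 4 arrays of cells without PARP-1 and close to wild type on both Wrn-mutant arrays, and the arrays of the 3 genotypes did not overlap. The mean was 2.86 ± 0.29 (SD, n = 2) in double-mutant cells, a 7.26-fold ratio. PARP-1 null cells averaged 6.26 ± 0.51 (SD, n = 2), a 76.8-fold ratio, and Wrn-mutant cells -0.07 ± 0.10 (SD, n = 2). The PARP-1 null ratio was the highest of 20679 features (rank 51 in double-mutant cells), or the lowest if the direction is turned, and drew attention to the histone genes, so it is given as a description with no test. Its first PARP-1 null array, at 1.993 in the deposited log10 unit, lies just under the limit of 2, so this size may be cut short. The double mutant also lacks PARP-1 and shares the wild type, and the fit takes its spread from all 6 arrays. The tests of H2bc18 given here are therefore not independent of its choice. H2bc18 passed in double-mutant cells against wild type (limma, Benjamini-Hochberg adjusted p = 0.0126) and did not in Wrn-mutant cells (adjusted p = 0.979). Its adjusted p became 0.0951 when the first double-mutant array was left out, 0.0633 when the second was, 0.066 with the spread of ratios made equal between arrays, and between 0.000514 and 0.0459 under the other alternatives.

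The double mutant exceeded the Wrn mutant by 2.93 (SE 0.31) for H2bc18, rank 25 of 20679 from the highest, with an unadjusted p of 0.00108 and a limma adjusted p of 0.118. With spots exactly at 0 taken as missing, the adjusted p of this difference was 0.0493, and over all alternatives it lay between 0.0338 and 0.345. The double mutant was lower than the PARP-1 null by a log2 difference of -3.40. This uses the arrays that led to the choice and is given as a description. In that comparison 0 of 20679 features passed. The sum of the single-mutant ratios was 6.20, against 2.86 measured in double-mutant cells, also given as a description.

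Among the members, H2bc18 had the highest mean in double-mutant cells. It was also highest in PARP-1 null cells, but that value led to its choice. Its rank there was thus fixed by the choice, and its gap there is only described. In double-mutant cells its mean lay 1.47 above the next histone gene, H2ax at 1.39, with gaps of 1.64 and 1.30 on the 2 arrays. In PARP-1 null cells the gap to the next gene, H4c9 at 1.12, was 5.14, with 5.35 and 4.93 on the 2 arrays. In Wrn-mutant cells H2bc18 ranked 17 of 35, 0.80 below the highest member, H1f3 at 0.73. Histone symbols that the naming rule left out came closer. H2bu2, annotated as an H2B gene, averaged 1.94 in double-mutant cells, above H2ax. H2bfm was at 6.46 on the second PARP-1 null array, above H2bc18 there, and exactly 0 on the 5 others. The plot of all members by array shows the row of H2bc18 beside the other members.

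**Figure D1:**
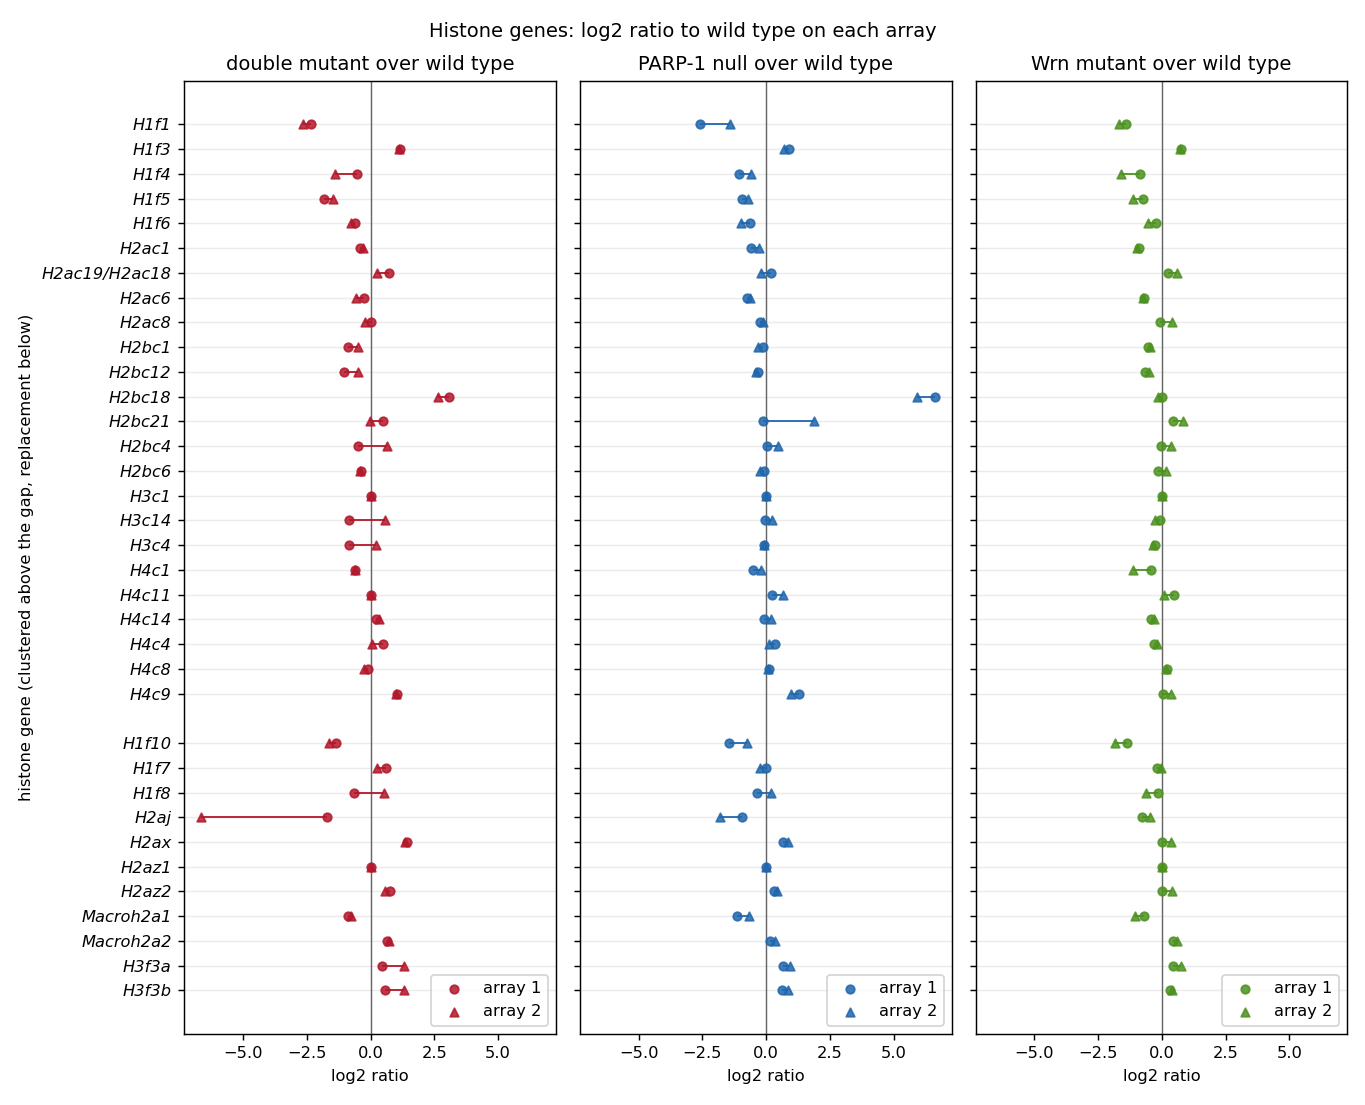
Log2 ratio, mutant over wild type, of the 35 histone spots on each of the 6 arrays, with the double mutant first, the PARP-1 null next and the Wrn mutant last. H2bc18 stands at 3.07 and 2.65 in double-mutant cells and 6.62 and 5.91 in PARP-1 null cells, and H2aj reaches -6.64 on 1 double-mutant array.

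The other H2B genes encode nearly the same protein as H2bc18, and clustered genes are alike enough in coding sequence that 1 probe may read several. Probe sequences were not used here, so signal shared between copies is uncertain for every clustered gene. H2bc12 stood at -1.03 and -0.49 in double-mutant cells, -0.30 and -0.39 in PARP-1 null cells and -0.66 and -0.50 in Wrn-mutant cells, below wild type on each array and far from H2bc18. H2bc21, a neighbour on chromosome 3, stood at 0.48 and -0.04 in double-mutant cells, -0.11 and 1.86 in PARP-1 null cells, and 0.45 and 0.81 in Wrn-mutant cells. The 2 arrays of H2bc21 disagreed in both genotypes without PARP-1. H2bc1, a testis-enriched H2B gene, fell in double-mutant cells, at -0.89 and -0.48 (limma adjusted p = 0.0434), against -0.11 and -0.33 in PARP-1 null cells and -0.55 and -0.45 in Wrn-mutant cells. H2bc4 lay between -0.48 and 0.63 and H2bc6 between -0.42 and 0.17 over the 6 arrays, and both passed in neither test.

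Genes beside H2bc18 were measured too. In RefSeq order the nearest measured gene on one side was H4c14, with 1 unmeasured gene between, and on the other Fcgr1, a macrophage receptor for antibodies. H4c14 stood at 0.20 and 0.32 in double-mutant cells, -0.10 and 0.20 in PARP-1 null cells and -0.43 and -0.29 in Wrn-mutant cells. Fcgr1 stood at 0 and 0.76 in double-mutant cells, -0.26 and 0.37 in PARP-1 null cells and 0 and 0.56 in Wrn-mutant cells. Neither came near H2bc18 on any of the 4 arrays of cells without PARP-1. Beyond Fcgr1 the measured genes on that side were far off in gene order, with 47 to 55 RefSeq genes between them and H2bc18. Of the 10 measured genes, 5 on each side, 1 passed in double-mutant cells, where 18.3% of all features did. This was Rbm8a, the farthest, an exon junction complex subunit, at 2.03 and 0.96 (limma adjusted p = 0.0489), with 1.05 and 0.80 in PARP-1 null cells and 0.20 and 0.39 in Wrn-mutant cells.

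**Figure D2:**
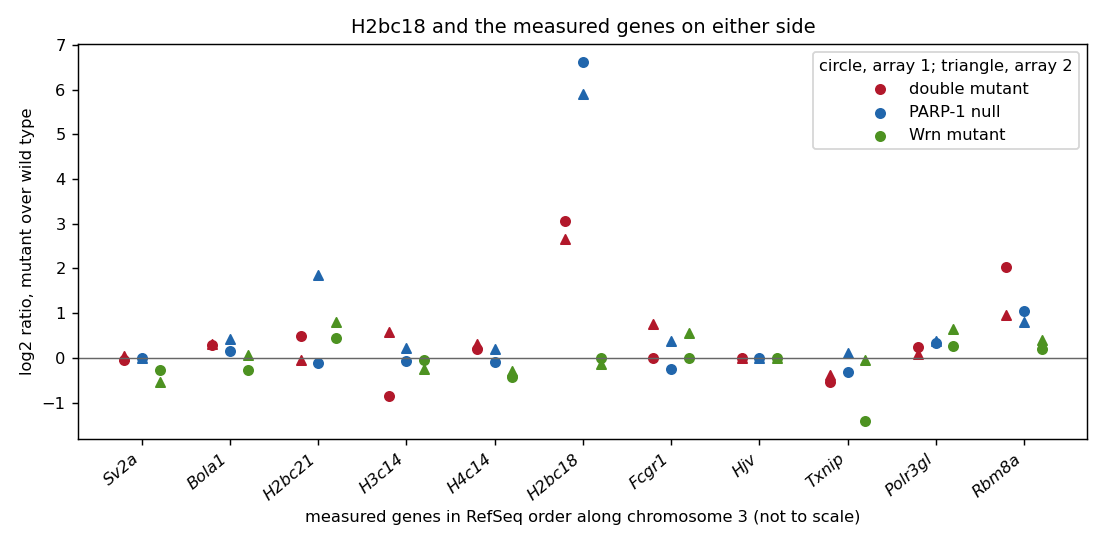
Log2 ratio of H2bc18 and of up to 5 measured genes on each side of it, in RefSeq gene order and not to scale by distance, with 1 point per array and colours for the double mutant, the PARP-1 null and the Wrn mutant. The neighbours stay between -1.40 and 2.03, while H2bc18 reaches 6.62 in PARP-1 null cells.

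Over all histone spots, 12 of 35 passed in double-mutant cells against wild type (34.3%), where 18.3% of all features passed. Of these, 6 rose, against a background of 9.24% of features, and 6 fell, against 9.11%. They include H2bc18, whose test is not independent of its choice. The clustered genes gave 7 of 24, of which H2bc18, H1f3 and H4c9 rose and H1f1, H1f5, H1f6 and H2bc1 fell. The replacement variants gave 5 of 11, of which H2ax, Macroh2a2 and H2az2 rose and H1f10 and Macroh2a1 fell. This count fell to 0 when either double-mutant array was left out, to 4 whichever PARP-1 null array was left out and to 6 whichever Wrn-mutant array was, and was 4 with the spread of ratios made equal between arrays. In Wrn-mutant cells 3 of 35 passed (8.57%), against 3.36% of all features. H1f3 rose there (1 of 35, against 0.943% of features), and H2ac1 and H2ac6 fell (2 of 35, against 2.41%), and the count was 0 without any 1 of the 6 arrays. In PARP-1 null cells 5 of 35 passed, beside 7.95% of all features. That count includes H2bc18, whose value there led to the choice of genes, and nothing is read from it. A change of at least 2-fold in one direction on both arrays was met by 7 spots in double-mutant cells (12.3% of all features), 2 in PARP-1 null cells (8.46%) and 2 in Wrn-mutant cells (5.97%). For the counts with 1 array left out or with equal spread, the share of all features was not computed.

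The linker histone genes H1 moved in both directions. H1f3 rose in double-mutant cells, at 1.16 and 1.10 (limma adjusted p = 0.0104), and in Wrn-mutant cells, at 0.74 and 0.72 (adjusted p = 0.0192). It stood at 0.89 and 0.72 in PARP-1 null cells. These 6 values lay close together and above wild type. H1f1, another somatic linker histone, fell in double-mutant cells, at -2.32 and -2.64 (adjusted p = 0.0264). It stood at -2.61 and -1.43 in PARP-1 null cells and at -1.41 and -1.67 in Wrn-mutant cells, where the adjusted p was 0.107. H1f1 was thus low on each array while H1f3, of the same family and chromosome, was high.

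H1f5 fell in double-mutant cells, at -1.83 and -1.48 (adjusted p = 0.0166), with -0.96 and -0.72 in PARP-1 null cells and -0.74 and -1.12 in Wrn-mutant cells (adjusted p = 0.0754). The double-mutant arrays lay below all 4 others. H1f6, the testis linker histone, fell in double-mutant cells, at -0.61 and -0.78 (adjusted p = 0.0454), with -0.62 and -0.97 in PARP-1 null cells and -0.24 and -0.54 in Wrn-mutant cells. H1f4 stood at -0.55 and -1.38 in double-mutant cells, -1.09 and -0.60 in PARP-1 null cells and -0.86 and -1.59 in Wrn-mutant cells, and passed in neither test.

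Of the 4 clustered H2A spots, 2 fell in Wrn-mutant cells, where 2.41% of all features fell. With array number as a replicate block, 0 of the 35 histone spots passed there. H2ac1, a testis-enriched H2A gene, stood at -0.42 and -0.30 in double-mutant cells, -0.60 and -0.27 in PARP-1 null cells and -0.91 and -0.96 in Wrn-mutant cells, where it fell (limma adjusted p = 0.0366). H2ac6 stood at -0.27 and -0.56 in double-mutant cells (adjusted p = 0.0522), -0.74 and -0.63 in PARP-1 null cells and -0.72 and -0.75 in Wrn-mutant cells, where it fell (adjusted p = 0.046). For both genes the Wrn-mutant arrays lay below the double-mutant arrays without overlap. H2ac8, between -0.22 and 0.42, and the spot shared by H2ac19 and H2ac18, between -0.22 and 0.71, passed in neither test.

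Of the 6 H4 genes, which all encode the same core protein, 16.7% passed in double-mutant cells, beside 18.3% of all features. This was H4c9. It rose in double-mutant cells, at 1.06 and 0.99 (limma adjusted p = 0.0217), with 1.28 and 0.97 in PARP-1 null cells and 0.05 and 0.34 in Wrn-mutant cells (adjusted p = 0.389). Its 4 values in cells without PARP-1 lay above both Wrn-mutant values. H4c1, H4c4, H4c8, H4c11 and H4c14 passed in neither test, and their values lay between -1.14 and 0.64 over all arrays. The clustered H3 genes H3c4, between -0.86 and 0.20, and H3c14, between -0.85 and 0.59, did not pass either, and in double-mutant cells the 2 arrays of each had opposite signs.

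Of the replacement variants, H2ax, whose protein is phosphorylated beside DNA double-strand breaks, rose in double-mutant cells, at 1.43 and 1.36 (limma adjusted p = 0.0116). It stood at 0.68 and 0.86 in PARP-1 null cells and at 0.02 and 0.34 in Wrn-mutant cells (adjusted p = 0.364). The 3 genotypes did not overlap, in the order double mutant, PARP-1 null, Wrn mutant. H2az2, an H2A variant of active promoters, rose in double-mutant cells, at 0.77 and 0.57 (adjusted p = 0.0468), with 0.31 and 0.42 in PARP-1 null cells and -0.00 and 0.42 in Wrn-mutant cells.

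The 2 macroH2A genes, whose proteins carry a large extra domain and mark silent chromatin, differed in sign. Macroh2a2 rose in double-mutant cells, at 0.65 and 0.73 (limma adjusted p = 0.0198), with 0.16 and 0.33 in PARP-1 null cells and 0.43 and 0.61 in Wrn-mutant cells (adjusted p = 0.0609). Macroh2a1 fell in double-mutant cells, at -0.90 and -0.78 (adjusted p = 0.0485), with -1.15 and -0.65 in PARP-1 null cells and -0.70 and -1.06 in Wrn-mutant cells (adjusted p = 0.0898). H1f10, a replication-independent linker histone, fell in double-mutant cells, at -1.34 and -1.63 (adjusted p = 0.035). Its values were -1.48 and -0.76 in PARP-1 null cells and -1.37 and -1.82 in Wrn-mutant cells (adjusted p = 0.066).

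H3f3a and H3f3b, which encode the same replacement histone H3, did not pass. H3f3a stood at 0.46 and 1.33 in double-mutant cells, 0.68 and 0.93 in PARP-1 null cells and 0.42 and 0.76 in Wrn-mutant cells. H3f3b stood at 0.56 and 1.32 in double-mutant cells, 0.61 and 0.87 in PARP-1 null cells and 0.32 and 0.40 in Wrn-mutant cells. Both genes were above wild type on each array, and their double-mutant arrays were the most spread. H2aj, an H2A variant, stood at -1.69 and -6.64 in double-mutant cells, where -6.64 is the limit of the deposited scale, with -0.96 and -1.82 in PARP-1 null cells and -0.79 and -0.47 in Wrn-mutant cells. It did not pass (adjusted p = 0.116), and its double-mutant arrays differed more than those of any other member. The germ-cell linker genes H1f7 and H1f8 stood at 0.60 and 0.27, and at -0.66 and 0.54, in double-mutant cells. They stood at 0 and -0.22, and at -0.37 and 0.19, in PARP-1 null cells, and at -0.19 and -0.03, and at -0.15 and -0.61, in Wrn-mutant cells, and neither passed.

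As classes, the clustered genes had a median of -0.15 in double-mutant cells, -0.054 in PARP-1 null cells and -0.19 in Wrn-mutant cells, and the replacement variants one of 0.43, 0 and 0 in the same order of genotypes, beside a median of 0 over all features in each. By array, the clustered median was -0.33 and -0.13 in double-mutant cells, -0.10 and -0.09 in PARP-1 null cells and -0.19 and -0.21 in Wrn-mutant cells. The replacement median was 0.46 and 0.54 in double-mutant cells, 0 and 0.19 in PARP-1 null cells and -0.00 and 0 in Wrn-mutant cells. These medians describe the lists, and the members of each spread far more widely than the medians differ.

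Set directly against the Wrn mutant, a comparison in which dye bias cancels, the double mutant gave no call among the 35 spots (limma, Benjamini-Hochberg), as among all 20679 features (0%). At an unadjusted p under 0.05 there were 10 of 35 (28.6%), against 14% of all features. After H2bc18 the smallest unadjusted p belonged to H2ax, 1.21 higher in double-mutant cells (SE 0.14, unadjusted p = 0.0016, adjusted p = 0.132). H4c9 differed by 0.83 (SE 0.16, adjusted p = 0.209), H1f3 by 0.40 (SE 0.08, adjusted p = 0.2) and H1f5 by -0.73 (SE 0.21, adjusted p = 0.305). H4c8 differed by -0.35 (SE 0.07, adjusted p = 0.215), H4c14 by 0.62 (SE 0.13, adjusted p = 0.23) and H2ac1 by 0.58 (SE 0.14, adjusted p = 0.243). The largest difference in size was that of H2aj, -3.54 (SE 1.86, adjusted p = 0.523), with 1 double-mutant array at the limit of the scale. The double-mutant arrays lay above both Wrn-mutant arrays for 12 spots (34.3%, against 22.6% of all features) and below both for 7 (20%, against 16.2%). Of the 11 replacement variants, 5 lay above and 1 below, and of the 24 clustered spots, 7 above and 6 below. For 2 spots, H2bc18 and H2ax, the arrays of the 2 genotypes were at least 2-fold apart (2.31% of all features).

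**Figure D3:**
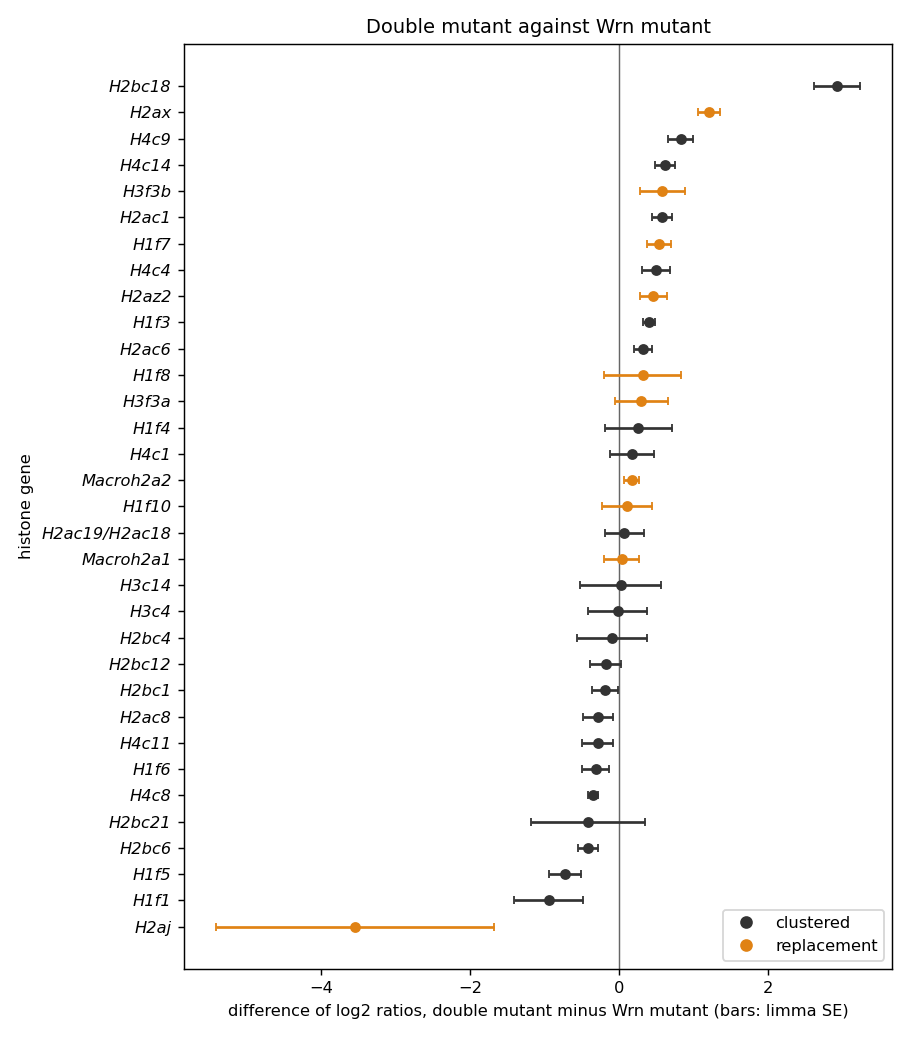
Log2 difference of the double mutant from the Wrn mutant for each histone spot, with H2az1 and H3c1, at 0 on each array, left out. Points are mean differences, bars are limma standard errors, and colours mark the clustered genes and the replacement variants. H2bc18 at 2.93 and H2ax at 1.21 lie highest.

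Genes that serve histones were taken from lists chosen with earlier results known. Of 16 measured genes for histone gene transcription and mRNA processing, 5 passed in double-mutant cells (31.2%, beside the 18.3% of all features) and 0 in Wrn-mutant cells, where 5 had an unadjusted p under 0.05 (31.2%, beside 23.6% of all features). Cstf2t and Lsm10, of the 3′ end processing machinery, rose, and Srrt, Npat and Sympk fell. Npat, the coactivator of clustered histone genes, stood at -1.20 and -0.75 in double-mutant cells (limma adjusted p = 0.0346), -0.50 and -0.37 in PARP-1 null cells and -0.45 and -0.79 in Wrn-mutant cells. Slbp, whose protein binds the histone mRNA stem-loop, stood at 0.38 and 0.37 in double-mutant cells, -0.05 and -0.10 in PARP-1 null cells and -0.60 and 0.03 in Wrn-mutant cells, and did not pass.

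Of 21 measured histone chaperone and exchange genes, 8 passed in double-mutant cells (38.1%, beside 18.3% of all features). Asf1a, Daxx and Nasp rose, and Ep400, Atrx, Nap1l4, Chaf1a and Anp32e fell. In Wrn-mutant cells 3 fell (14.3%, beside 2.41%). Chaf1a, a subunit of the factor that deposits histones behind the replication fork, stood at -0.60 and -0.62 in double-mutant cells (limma adjusted p = 0.0216), -0.72 and -0.60 in PARP-1 null cells and -1.13 and -0.93 in Wrn-mutant cells (adjusted p = 0.0161). Anp32e, a chaperone that removes an H2A variant, stood at -0.51 and -0.69 in double-mutant cells (adjusted p = 0.0243), -0.70 and -0.89 in PARP-1 null cells and -0.69 and -0.72 in Wrn-mutant cells (adjusted p = 0.0384). Nap1l4, a carrier of H2A and H2B, also fell in both genotypes.

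Since clustered histone mRNA depends on S phase, the S phase list is set beside it. Of 26 measured genes, 7 passed in double-mutant cells (26.9%, beside 18.3% of all features). Rrm1, Mcm5, Tk1 and Gins2 rose (15.4%, beside 9.24%) and Rfc3, Ccne2 and Pola2 fell (11.5%, beside 9.11%), and Pola2 fell in Wrn-mutant cells. Rrm1, a subunit of ribonucleotide reductase, stood at 1.12 and 1.30 in double-mutant cells, 0.46 and 0.84 in PARP-1 null cells and 0.05 and -0.00 in Wrn-mutant cells. Set against the Wrn mutant, 24 of the 26 were higher in double-mutant cells, as were 10088 of all 20679 features. At an unadjusted p under 0.05 (limma) there were 14 of 26 (53.8%, beside 14% of all features), and 0 passed. The list's median was 0.65 and 0.33 on the double-mutant arrays, -0.08 and -0.08 on the PARP-1 null arrays and -0.65 and -0.08 on the Wrn-mutant arrays. In the same order of genotypes, the clustered histone medians were -0.33 and -0.13, -0.10 and -0.09, and -0.19 and -0.21. Their relation to S phase was not tested. The arrays are of asynchronous cultures, so a different share of cells in S phase and a different amount of RNA per cell cannot be told apart.

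**Figure D4:**
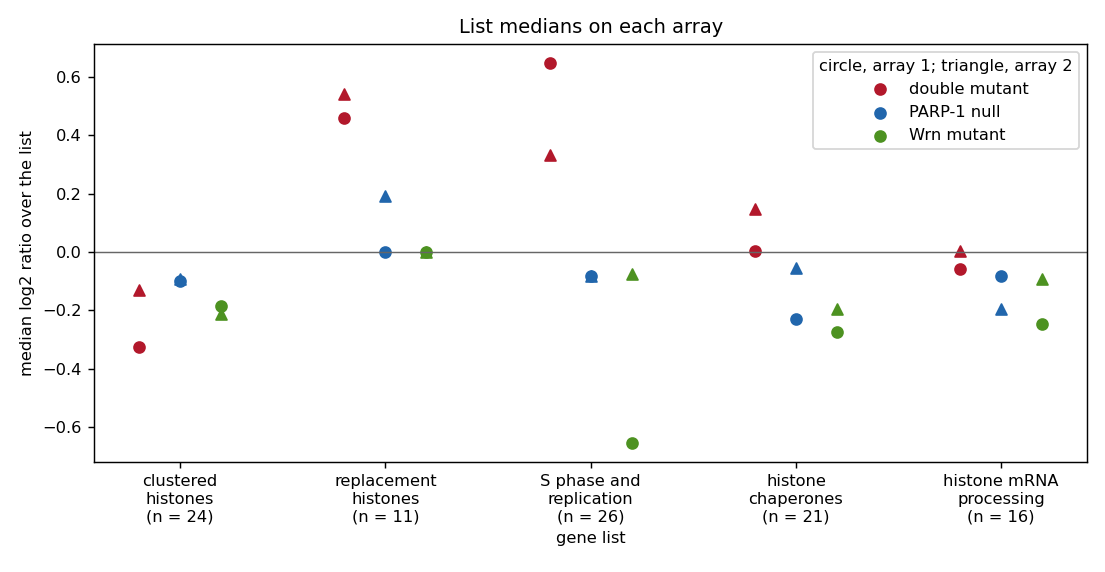
Median log2 ratio per array of the clustered histone genes, the replacement variants and the context lists, in the order double mutant, PARP-1 null, Wrn mutant. The S phase list is at 0.65 and 0.33 in double-mutant cells, and the clustered histone genes are at -0.33 and -0.13 on the same arrays.

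Markers of other cells differed between genotypes beside these results. The neural and glial list, with 3 of 4 genes measured, had medians of 0.66 and 0.26 in double-mutant cells, 0.86 and 1.05 in PARP-1 null cells and 0.42 and -0.08 in Wrn-mutant cells. Among them Sox10 stood at 3.88 and 3.30 in double-mutant cells, 2.29 and 2.18 in PARP-1 null cells and 0.42 and -0.22 in Wrn-mutant cells, so it was high on the same 4 arrays as H2bc18 but highest in the other genotype. Nes stood at 0.66 and 0.26 in double-mutant cells, 0.86 and 1.05 in PARP-1 null cells and 0.82 and -0.08 in Wrn-mutant cells. Tubb3 ran the other way in double-mutant cells, at -0.46 and -0.46, with 0.13 and 0.76 in PARP-1 null cells and 0.37 and 0.53 in Wrn-mutant cells. The macrophage list, with 6 of 8 measured, had medians of -0.48 and 0.07 in double-mutant cells, -0.36 and -0.33 in PARP-1 null cells and 1.30 and 0.20 in Wrn-mutant cells. The fibroblast list of 10 had medians of 0.51 and 0.84 in double-mutant cells, 0.75 and 0.86 in PARP-1 null cells and 0.06 and 1.21 in Wrn-mutant cells. The endothelial, epithelial and muscle lists had medians between -0.58 and 0.58 over all arrays. Within the endothelial list, Emcn stood at -3.12 and -3.03 in double-mutant cells, -1.50 and -2.51 in PARP-1 null cells and -0.21 and 1.91 in Wrn-mutant cells, and was thus low on the 4 arrays where H2bc18 was high. The list did not move as one. Cdh5 stood at -0.43 and 0.39 in double-mutant cells and 0.51 and 0.56 in PARP-1 null cells. In the same order, Pecam1 stood at 0 and 0, and 0.03 and 0. Kdr stood at -0.55 and -0.15, and -0.40 and -1.13, and Tek at -0.90 and -0.09, and -0.28 and 0. The part of cell makeup in the histone results was not tested.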

How the data were processed

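The authors deposited 1 log ratio per spot for each of 6 arrays, taken here as log10 because the values stop at a size of 2; neither the base nor the centring, background correction or spot filters are given in the labels. The labelling primer is not given either, so how fully mRNAs without a poly(A) tail were labelled is unknown. Ratios were multiplied by 3.32 (log2 of 10) and read as mutant over wild type from Parp1. Spots were named by the platform annotation, 18218 with 1 symbol, 16 with several and 4159 with none, and averaged per gene. The resulting 20679 features went into limma 3.58.1 (R 4.3.3), in 1 fit with a coefficient per genotype, 3 residual and 0.66 prior degrees of freedom, and Benjamini-Hochberg adjustment over all features at 0.05. The fit was also run on simulated independent normal noise with added changes. That simulation held no exact zeros, no scale limit and no shared wild type, so it does not check their effect.

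Groups came from titles and source labels. The double mutant and the Wrn mutant were each compared with wild type and with each other. The PARP-1 null was described, with its count of calls given and not interpreted. The double mutant was also fitted against the PARP-1 null, and 0 of 20679 features passed. P-values rest on the spread of duplicate arrays, some of which may be technical. The members and lists were chosen with earlier results of these data known. Values are given for H2bc18, members that passed, the 3 highest and 3 lowest members of each genotype, and replacement variants. Of the listed genes that passed, Npat, Chaf1a, Anp32e, Rrm1 and Sox10 have values and others are only named. Vim of the fibroblast list and Myog of the muscle list also passed in double-mutant cells (limma adjusted p = 0.0208 and 0.0416). They are not described above. Up to 5 measured neighbours on each side of H2bc18 are plotted, with values for some. Slbp, Anp32e, Sox10, Nes, Tubb3, Emcn, Cdh5, Pecam1, Kdr, Tek, symbols outside the naming rule and further clustered members were added after their values were seen. RefSeq (GRCm38.p6) gave promoters and gene order. Alternatives were scale normalization, zeros or limit values as missing, features with a 0 left out, the median of spots, an array-number block, a 2-fold rule and leaving out each array. Plots used matplotlib 3.10.9 in Python 3.11.15.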

Additional observations from a re-analysis of the deposited data

Results flagged for a closer look

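Some histone genes lay on opposite sides of wild type on both arrays of 2 genotypes. For the double mutant minus the Wrn mutant, the mean log2 differences were 2.93 for H2bc18, 0.62 for H4c14, 0.54 for H1f7, 0.50 for H4c4 and -0.35 for H4c8. None of these passed limma with Benjamini-Hochberg adjustment. For the PARP-1 null minus the Wrn mutant, they were 6.33 for H2bc18 and 0.47 for H4c4, and for the double mutant minus the PARP-1 null -0.27 for H4c8. The differences of the PARP-1 null from the Wrn mutant were not tested. The H4c8 difference between the double mutant and the PARP-1 null did not pass (limma adjusted p = 0.645).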

How the results depend on the processing

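With 2 arrays a genotype and no signal over background, calls depend on the settings. Counts of histone genes that passed were, for the double mutant, 12 as reported, 4 with the spread of ratios made equal between arrays, 7 under a 2-fold rule on both arrays with no test, 16 with exact zeros missing, and 0 to 6 with 1 array left out. For the Wrn mutant 3 became 5 with equal spread, 8 without features that hold a 0, and 0 to 0 with 1 array left out. For the PARP-1 null, where H2bc18 led to the choice of genes and nothing is read from the count, 5 became 10 with zeros missing or such features left out, 2 under the 2-fold rule, and 1 to 2 with 1 array left out. The double mutant against the Wrn mutant gave 0, but 1 (H2bc18) with zeros missing or such features left out, and 2 under the 2-fold rule, and 0 to 0 with 1 array left out. With array number as a replicate block, the counts were 6 in double-mutant cells, 0 in PARP-1 null cells and 0 in Wrn-mutant cells. Same-numbered arrays did not deviate together throughout (correlations over features of 0.15 for the double mutant and PARP-1 null, -0.17 for the double and Wrn mutants, -0.11 for the PARP-1 null and Wrn mutant), so the block is no pairing.

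The gap from H2bc18 to the next histone gene was 1.23 in double-mutant cells with equal spread and 1.30 to 1.64 with 1 array left out, and 4.04 to 5.35 in PARP-1 null cells. The clustered median became -0.048 (PARP-1 null) and -0.22 (Wrn mutant) with equal spread and -0.088 and -0.24 with zeros missing. With 1 array left out it ranged from -0.33 to -0.13 in double-mutant cells, -0.099 to -0.054 in PARP-1 null cells and -0.21 to -0.19 in Wrn-mutant cells. The replacement median in double-mutant cells was 0.35 with equal spread, 0.55 with zeros missing and 0.43 to 0.54 with 1 array left out. It was 0 to 0.19 in PARP-1 null cells and -0.00 to 0 in Wrn-mutant cells with 1 array left out, and 0.037 in Wrn-mutant cells with zeros missing. Among single genes, the sign turned in some cases with 1 array left out. H1f8 ranged from -0.66 to 0.54 and H2bc21 from -0.039 to 0.48 in double-mutant cells, and H2az2 from -0.00095 to 0.42 in Wrn-mutant cells. In PARP-1 null cells H1f8 was 0.19 without the first array and H2bc21 was -0.11 without the second. Limit values as missing and the median of spots changed no count by over 1.5 times. The cause was not tested.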

Other observations

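Of 10 further histone symbols outside the naming rule, Cenpa, the centromere histone H3 variant, stood at 1.35 and 1.34 in double-mutant cells (limma adjusted p = 0.0109), 0.15 and 0.43 in PARP-1 null cells and 0.04 and 0.21 in Wrn-mutant cells. H2bu2, annotated as an H2B gene, stood at 2.25 and 1.64 in double-mutant cells (adjusted p = 0.0222), 1.46 and 0.90 in PARP-1 null cells and 1.02 and 1.23 in Wrn-mutant cells, so that it was high in each genotype. H4f16 stood at -0.59 and -0.88 in double-mutant cells (adjusted p = 0.0296), -0.73 and -0.59 in PARP-1 null cells and -0.17 and -0.38 in Wrn-mutant cells. H2bfm was at 6.46 on 1 PARP-1 null array and exactly 0 on the 5 others.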
